A study of Mus musculus with 32 samples.

Results

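Surfactant is made by the type II pneumocytes of the alveolar epithelium, and 10 genes of these cells were followed in the lungs of newborn mice exposed to 21% O2 or 85% O2. The genes were Sftpa1, Sftpb, Sftpc, Sftpd, Abca3, Lamp3, Slc34a2, Lpcat1, Napsa and Etv5. They were found by their symbol on the array, as 10 of 24336 named genes and 12 of 55681 mouse probes. Sftpb and Sftpd had 2 probes each and the other genes had 1. One-colour arrays of whole-lung RNA came from 32 C57Bl/6J pups, 4 in each of 8 groups. Pups breathed 21% O2 (normoxia) or 85% O2 (hyperoxia), the mouse model of bronchopulmonary dysplasia, and lungs were taken at P5 or P14. Every pup, controls included, was injected with a locked nucleic acid oligonucleotide, which was either a scrambled antimiR or antimiR-34a, an inhibitor of miR-34a. The groups were therefore P5 and P14, 21% O2 and 85% O2, scrambled antimiR and antimiR-34a, in every combination, with no uninjected pups. Whole lung holds many cell types, so that fewer type II pneumocytes and less RNA per type II pneumocyte cannot be told apart.

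Surfactant is a film of lipid and protein that lowers surface tension at the air-liquid interface of the alveoli. SP-B and SP-C, from Sftpb and Sftpc, are small hydrophobic proteins that spread the film, while SP-A and SP-D, from Sftpa1 and Sftpd, are collectins that bind microbes and take part in surfactant turnover. Type II pneumocytes store surfactant in lamellar bodies, where Abca3 carries phospholipid across the membrane and Lamp3 lies in the limiting membrane, while Lpcat1 makes the saturated phosphatidylcholine, Napsa is an aspartic protease that processes the surfactant proteins and Slc34a2 takes phosphate back from the airspace. Etv5 is an ETS transcription factor downstream of FGF signalling that type II pneumocytes need to keep their identity.

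The probes are shown because both genes with 2 probes gave different answers with them. The Sftpc probe begins in the last bases of the coding sequence, which are printed with the stop codon in capitals. The dimmer Sftpb probe lay in coding sequence, while its brighter partner held a polyadenylation signal (AATAAA), as did the Lamp3 and Etv5 probes. On the mm9 build, per the file headers, the brighter Sftpd probe lay at chr14:41985664-41985723 on the minus strand and the dimmer at chr14:41987767-41987826, also on the minus strand. The brighter Sftpb probe lay at chr6:72264305-72264364.
Sftpc: ggagagctaccactctactatatcTAG
Sftpb, dimmer probe: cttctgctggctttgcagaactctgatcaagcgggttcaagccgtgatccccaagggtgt
Sftpd, brighter probe: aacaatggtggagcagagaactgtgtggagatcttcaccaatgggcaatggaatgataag
Sftpd, dimmer probe: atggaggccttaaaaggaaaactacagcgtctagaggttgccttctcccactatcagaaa

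The Etv5 probe was placed by the array annotation on chromosome 10 (chr10:71170544-71170603, plus strand, mm9), whereas RefSeq has Etv5 on chromosome 16, and whether the probe also reads another copy of its sequence was not tested. Sftpc, Napsa and the dimmer Sftpb probe had no position in the annotation.

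The antimiR-34a is directed against miR-34a-5p, whose mature sequence is given from RefSeq (GRCm38.p6, chr4:150068473-150068494, plus strand) with the seed, bases 2 to 8, in capitals.
mmu-miR-34a-5p: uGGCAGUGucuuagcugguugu

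Promoters from RefSeq (GRCm38.p6) matched 7 of the 10 genes, with 2 start sites for Etv5. Sftpc, Sftpd and Napsa had no entry. The 250 bases before the start were searched on both strands for CTCAAG, which is a core of NKX2-1 sites, and for forkhead, C/EBP and ETS motifs. CTCAAG was present at 2 places before Sftpb and at 1 before Sftpa1, in 2 of the 8 promoters, against 13.3% of all 32851 promoters. The forkhead motif TGTTTAC was present in 2 (Lamp3 and 1 Etv5 promoter) against 3.17% of all promoters. The C/EBP motif TTGCNNAA was found before Slc34a2, at a palindromic site, and was held by 9.56% of all promoters. The ETS motif GGAAGT, before the other Etv5 start, was held by 19.7% of them. A further forkhead motif, TATTTAC, was in 2.73% of all promoters and in none of the 8. A match describes the letters and is not a binding site. The promoters of Sftpa1 and Slc34a2, the genes that changed with oxygen at both ages, and of Sftpb and Lamp3 are printed with the motifs in capitals.
Sftpa1, chr14:41131538-41131787, plus strand: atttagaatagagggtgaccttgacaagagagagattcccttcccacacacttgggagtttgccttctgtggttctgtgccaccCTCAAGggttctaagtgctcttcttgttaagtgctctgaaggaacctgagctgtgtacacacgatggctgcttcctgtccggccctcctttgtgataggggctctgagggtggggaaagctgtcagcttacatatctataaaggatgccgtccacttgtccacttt
Slc34a2, chr5:53049103-53049352, plus strand: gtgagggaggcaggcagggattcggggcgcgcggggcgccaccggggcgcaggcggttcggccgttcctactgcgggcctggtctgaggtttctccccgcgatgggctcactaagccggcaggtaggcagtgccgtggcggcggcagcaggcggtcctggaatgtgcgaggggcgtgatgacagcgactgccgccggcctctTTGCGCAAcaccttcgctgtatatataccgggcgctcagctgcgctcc
Sftpb, chr6:72304360-72304609, plus strand: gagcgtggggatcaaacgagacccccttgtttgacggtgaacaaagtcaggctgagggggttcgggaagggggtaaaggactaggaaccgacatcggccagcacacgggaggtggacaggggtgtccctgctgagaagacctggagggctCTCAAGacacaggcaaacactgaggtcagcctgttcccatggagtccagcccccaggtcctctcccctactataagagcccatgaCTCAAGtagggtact
Lamp3, chr16:19706366-19706615, minus strand: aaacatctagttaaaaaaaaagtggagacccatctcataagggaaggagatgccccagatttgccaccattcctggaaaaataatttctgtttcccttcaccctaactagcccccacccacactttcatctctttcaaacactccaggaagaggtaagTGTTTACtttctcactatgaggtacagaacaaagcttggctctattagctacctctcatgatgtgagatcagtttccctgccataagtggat

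Levels below are the log2 processed signal of a probe minus the 75th percentile of its array, so that a level of 0 is the brightness of that percentile and a step of 1 is a doubling. They compare the same probe between mice, not one gene with another. Each age and oxygen level was hybridised on a slide of its own, 4 slides in all, so that an effect of oxygen or age and an effect of the slide cannot be told apart. The antimiR comparison lay within a slide, with scrambled antimiR and antimiR-34a in different rows of it. Array brightness (the 75th percentile itself) ran from 9.20 to 10.2 on the log2 scale. The dimmest arrays were P5 hyperoxia antimiR-34a replicate 3, at 9.20, and P14 normoxia scrambled replicate 4, at 9.34. P5 normoxia scrambled replicate 4 stood apart in skeletal muscle genes, whose mean level over 8 genes was 0.66 there and between -3.63 and -2.90 in the other mice of its group. Of the 4 brightest, Acta1 (log2 -1.94) and Ckm (-2.75) were lower in 85% O2 than in 21% O2 at P5 under scrambled antimiR, and Tnnc2 (-2.20) and Tnnt3 (-2.27) were not called. Nothing in the labels states separate litters or cages, so that limma p-values measure the spread between mice within groups. That spread was pooled over the 4 groups of an age, or over all 8 groups for comparisons between ages, and drawn towards that of other probes.

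All 12 probes were well above background on all 32 arrays, and no spot of theirs had a saturated pixel. Sftpc came closest to the top of the scale. Its mean signal was 41.7% to 51.2% of the scanner's saturation value at P5 and 66.1% to 89.8% at P14. It was the brightest of the 55681 probes on 22 arrays, the second brightest on 7 and the third on 3. The bright probes of Sftpd and Sftpb reached at most 28.8% and 21.7%, respectively, and every other probe at most 12.4%. Slc34a2 and Lpcat1 had the faintest spots, at most 1.11% and 0.372% of the saturation value.

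The rank of Sftpc matters for the table of values that the authors deposited, which had the same distribution in every column. In that table Sftpc took 3 distinct values, to 3 decimals, on the 32 arrays, between 18.69 and 18.80, and its difference between P5 and P14 in scrambled antimiR mice under 21% O2 was 0. On the scale used here its levels spanned 1.43. The scaled level of Sftpc also moved with array brightness within groups. In P14 normoxia scrambled mice its level was 9.23, 9.09, 9.10 and 9.63, with the highest level on the dimmest array, where its signal was the lowest of the group, at 69.5% of the saturation value against 83.1% to 88.1% on the other arrays. In P14 normoxia antimiR-34a mice it was 9.16, 9.61, 9.57 and 9.57, with the lowest level on the brightest array of all 32. Over all 32 arrays, which share slides, the level correlated with array brightness at r = -0.50 for Sftpc and at -0.63 for the brighter Sftpb probe, and between -0.33 and 0.47 for the other probes. The part of array brightness in the Sftpc and Sftpb results was not tested.

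**Figure D1:**
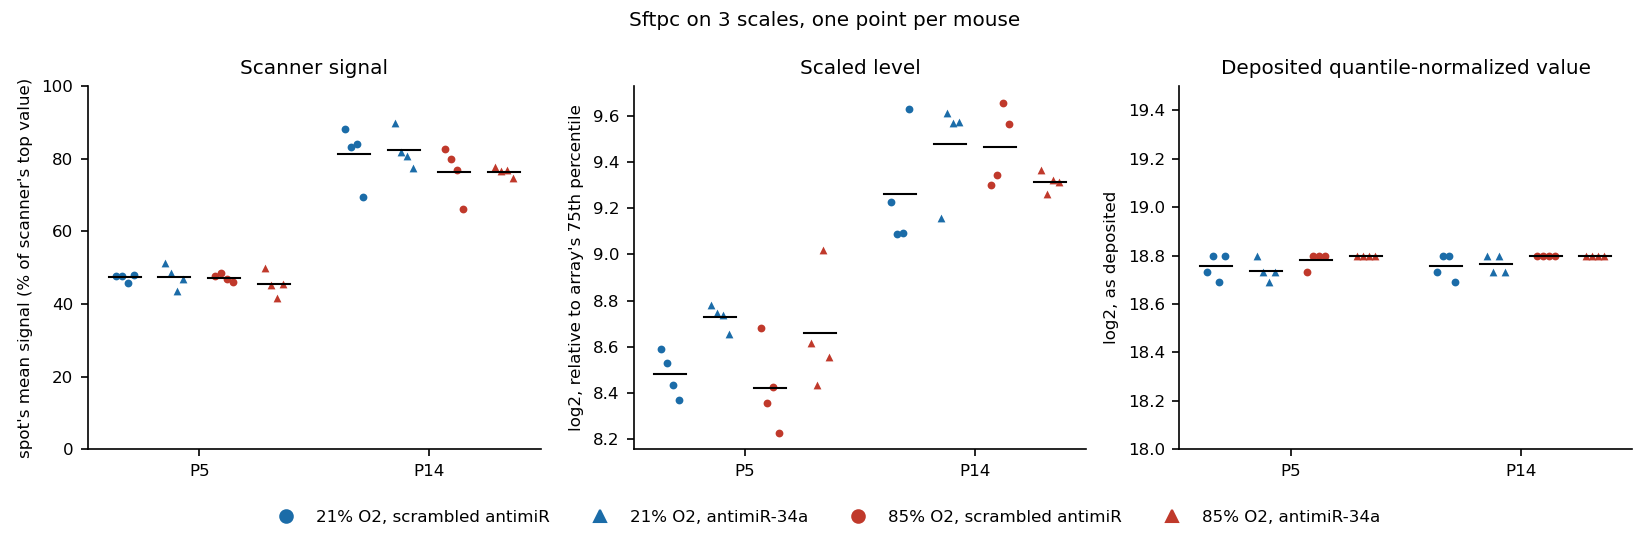
Sftpc in each mouse by age (x axis) as scanner signal in % of the saturation value, as the log2 level used here, and as the quantile-normalized log2 value that the authors deposited; black bars are means of 4 mice. The scanner signal lies between 41.7% and 89.8% and the deposited value between 18.69 and 18.80 throughout.

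Most of the genes differed between oxygen levels at P14, in different directions. Under scrambled antimiR, 9 of the 10 differed between 85% O2 and 21% O2 (limma, adjusted p below 0.05 over 38458 probes), against 60.9% of all tested probes. There were 6 lower genes, Sftpa1, Abca3, Lamp3, Slc34a2, Napsa and Etv5, against 32.7% of probes called lower. There were 3 higher genes, Sftpb, Sftpd and Lpcat1, against 28.2% called higher. The median change of the 10 genes was -0.35 on the log2 scale, and that of all tested probes -0.07. The mice of both oxygen levels did not overlap for 7 of the 10 genes, which was the case for 56.7% of all probes.

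The collectin genes moved in opposite directions. Sftpa1 had levels of 6.44, 6.39, 6.48 and 6.22 at P14 in 21% O2 and 5.54, 5.55, 5.57 and 5.38 in 85% O2, so that every hyperoxia-exposed mouse was below every control. It was at 0.545 times its level in 21% O2 (log2 fold change -0.88 ± 0.12 (SE), adjusted p = 3.64e-05 by limma). Sftpd, in contrast, had levels of 6.44, 6.55, 6.56 and 6.56 in 21% O2 and 7.16, 7.23, 7.40 and 7.20 in 85% O2. All 4 mice in 85% O2 were above all 4 in 21% O2, 1.65 times as high (log2 0.72 ± 0.12, adjusted p = 0.000149 by limma). The second Sftpd probe was higher also (log2 0.52 ± 0.17, adjusted p = 0.0161 by limma).

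For the RNA of the hydrophobic surfactant proteins, the calls depended on the scaling and on single mice. Sftpc, the gene that marks type II pneumocytes best, had levels of 9.23, 9.09, 9.10 and 9.63 in 21% O2 and 9.30, 9.35, 9.66 and 9.57 in 85% O2. These groups overlapped, and the difference of 0.21 ± 0.13 on the log2 scale had a 95% interval from -0.08 to 0.49 (adjusted p = 0.187 by limma). Without the dim control array (replicate 4) the difference was 0.33, with an adjusted p of 0.0277 by limma. With array weights it was 0.27 (adjusted p = 0.0247 by limma). Sftpb, measured by its brighter probe, had levels of 7.18, 7.21, 7.17 and 7.34 in 21% O2 and 7.52, 7.31, 7.63 and 7.53 in 85% O2. The highest control lay above the lowest exposed mouse, and the log2 difference was 0.27 ± 0.10 (adjusted p = 0.0301 by limma). Of the 4 control arrays 3 were brighter than every exposed array, with 75th percentiles of 10.1 to 10.2 against 9.37 to 9.91 (log2). Before scaling, the geometric mean signal was no higher in 85% O2 than in 21% O2 for Sftpb (144700 against 148100) or Sftpc (566800 against 606500). The scaled Sftpb difference was 0.06 under quantile normalization (adjusted p = 0.519 by limma), 0.06 with the values the authors deposited (0.544) and 0.12 with normexp background correction (0.444). The call was also lost in 6 of the 8 fits that left out 1 mouse, and the dimmer Sftpb probe gave 0.12 ± 0.20 (adjusted p = 0.616 by limma).

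Of the remaining genes, Slc34a2, Lamp3, Napsa, Abca3 and Etv5 were lower and Lpcat1 was higher. Slc34a2, the phosphate transporter, had levels of 2.28, 2.41, 2.24 and 2.35 in 21% O2 and 1.96, 1.69, 1.70 and 1.52 in 85% O2, with no overlap. It was at 0.660 times the control level (log2 -0.60 ± 0.13, adjusted p = 0.000999 by limma). Lamp3 had levels of 5.58, 5.68, 5.76 and 5.64 in 21% O2 and 5.42, 5.21, 5.20 and 5.12 in 85% O2, again without overlap. Its log2 fold change was -0.43 ± 0.08 (adjusted p = 0.000278 by limma). Lamp3 is also known from mature dendritic cells. Of 7 dendritic cell genes tested, 3 were higher, Relb (1.30), Fscn1 (0.59) and Flt3 (0.48), and 1 was lower, Ccr7 (-1.33), with a median of 0.48 and Cd83 at 0.27. Their summed signal was 8.78 to 9.54 times the 75th percentile in 21% O2 and 11.8 to 13.1 times in 85% O2. The part of dendritic cells in the Lamp3 value was not tested.

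Napsa had levels of 3.99, 4.06, 4.08 and 3.74 in 21% O2 and 3.78, 3.41, 3.26 and 3.05 in 85% O2. Of the exposed mice, 1 lay above the lowest control, and the log2 fold change of -0.59 ± 0.18 passed the test (adjusted p = 0.00939 by limma). Abca3, the lipid transporter, had levels of 5.55, 5.61, 5.64 and 5.67 against 5.36, 5.38, 5.44 and 5.21, a smaller but non-overlapping difference (log2 -0.27 ± 0.07, adjusted p = 0.00367 by limma). Lpcat1, the enzyme of saturated phosphatidylcholine, went the other way. Its levels were 0.95, 0.89, 0.90 and 0.79 in 21% O2 and 1.14, 1.19, 1.07 and 1.23 in 85% O2, a log2 difference of 0.27 ± 0.07 (adjusted p = 0.00548 by limma). Before scaling, the geometric mean signal of Lpcat1 was no higher in 85% O2 than in 21% O2 (1784 against 1824). The part of array brightness in this value was not tested.

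Etv5, the transcription factor of the set, had levels of 4.78, 4.90, 4.97 and 4.84 in 21% O2 and 4.63, 4.32, 4.28 and 4.35 in 85% O2. The exposed mice were all below the controls, at 0.717 times their level (log2 -0.48 ± 0.09, adjusted p = 0.000412 by limma).

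**Figure D2:**
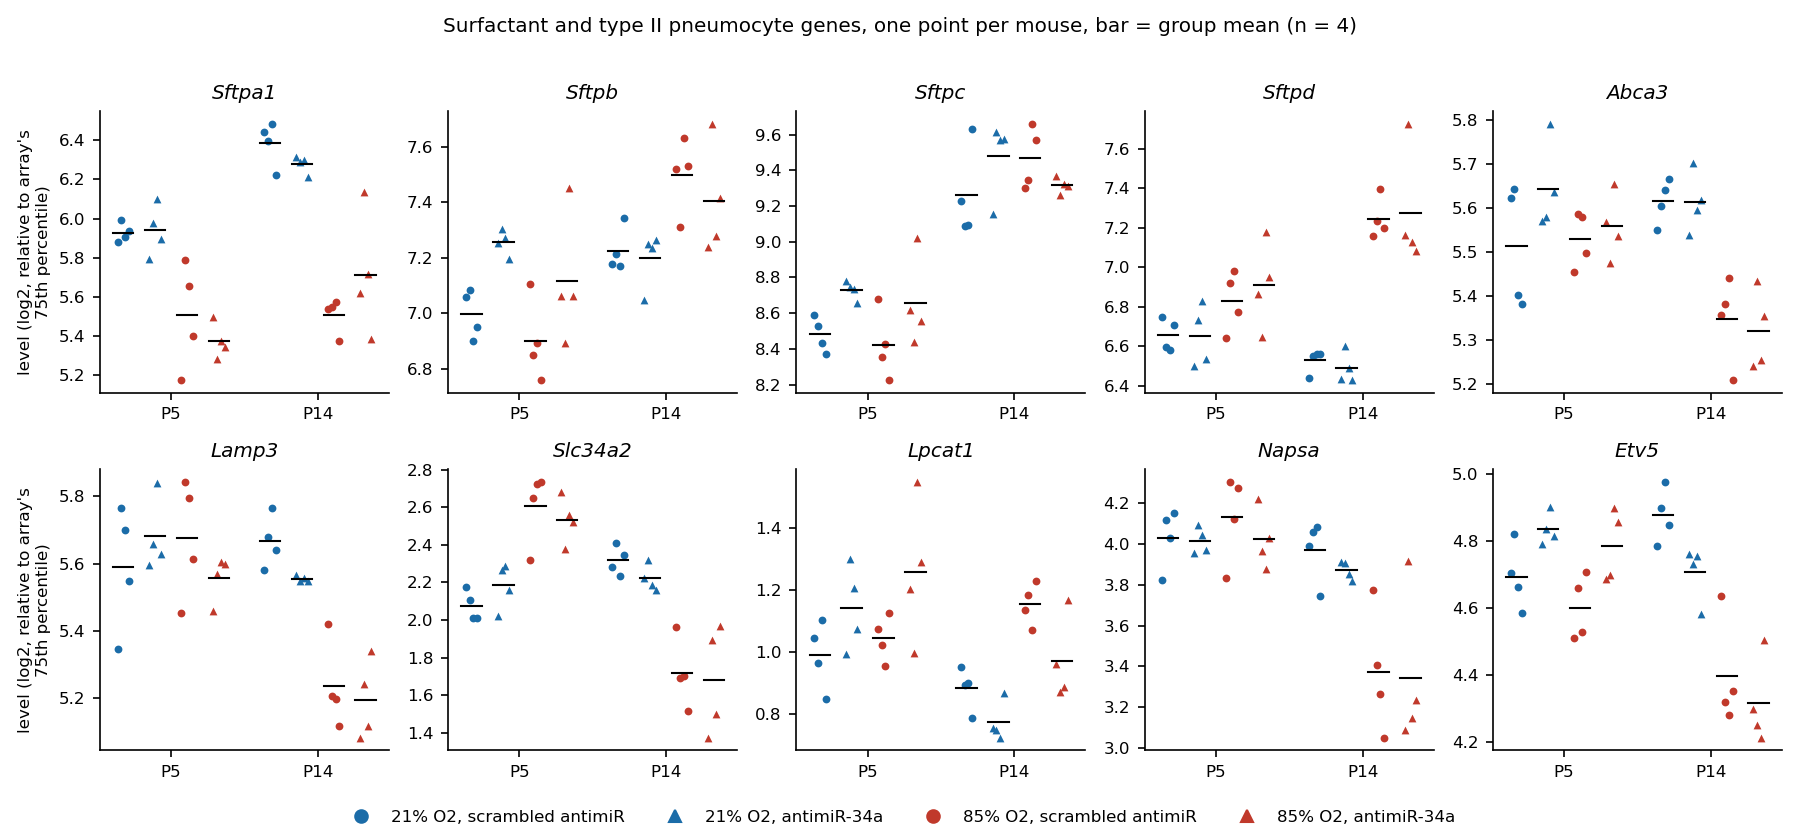
Level of each gene (y axis, log2 units above the array's 75th percentile, brightest probe) in every mouse at P5 and P14 (x axis), with 21% O2 in blue, 85% O2 in red, scrambled antimiR as circles and antimiR-34a as triangles; bars are means of 4 mice. At P14 the exposed mice lie below the controls for Sftpa1, Abca3, Lamp3, Slc34a2 and Etv5 and above them for Sftpd and Lpcat1 when mice given the same oligonucleotide are compared.

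At P5 fewer of the genes differed. Only Sftpa1 and Slc34a2 were called among the 10, against 43.9% of 35984 probes, with 1 lower (26.5% of probes called lower) and 1 higher (17.4% called higher), and the same genes were the ones without overlap between oxygen levels, as were 39.1% of all probes. The median change was 0.04 on the log2 scale, against -0.07 for all probes. Sftpa1 had levels of 5.88, 5.99, 5.90 and 5.93 in 21% O2 and 5.18, 5.79, 5.66 and 5.40 in 85% O2, without overlap (log2 -0.42 ± 0.11, adjusted p = 0.00687 by limma). Slc34a2 had levels of 2.17, 2.10, 2.01 and 2.01 in 21% O2 and 2.32, 2.65, 2.73 and 2.74 in 85% O2. Every exposed mouse was above every control, at 1.45 times the level (log2 0.53 ± 0.10, adjusted p = 0.00058 by limma). Both calls were kept in each of the 8 fits without 1 mouse, the mouse that stood apart in muscle genes among them. With the methods' t-test Sftpa1 was not called (adjusted p = 0.113) and Slc34a2 was.

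The other 8 genes had log2 differences between -0.10 and 0.17 at P5 on their brightest probes. Sftpc, at 8.59, 8.53, 8.43 and 8.37 in 21% O2 and 8.68, 8.35, 8.43 and 8.23 in 85% O2, differed by -0.06 with a 95% interval from -0.31 to 0.19. Etv5, at 4.70, 4.82, 4.66 and 4.58 against 4.51, 4.66, 4.53 and 4.70, differed by -0.09 (interval -0.24 to 0.06). Intervals of the other 6 reached no further than 0.41 from 0, so that changes above that size would have lain outside them.

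The probes of Sftpb disagreed at P5. The brighter probe had levels of 7.06, 7.08, 6.90 and 6.95 in 21% O2 and 7.11, 6.85, 6.89 and 6.76 in 85% O2, a difference of -0.10 ± 0.10 (adjusted p = 0.471 by limma). The dimmer coding probe, printed above, had levels of 3.80, 3.89, 3.68 and 3.98 in 21% O2 and 4.32, 4.98, 4.76 and 4.70 in 85% O2. All exposed mice were above all controls with this probe, at 1.81 times the level (log2 0.86 ± 0.12, adjusted p = 5.95e-05 by limma). The dimmer Sftpd probe was also higher (log2 0.47 ± 0.14, adjusted p = 0.0114 by limma) where the brighter was not called (0.17 ± 0.11, adjusted p = 0.235 by limma). With the mean of both probes, 4 of the 10 genes were called at P5, with Sftpb and Sftpd higher. The direction of Sftpb at P5 therefore rested on the probe.

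**Figure D3:**
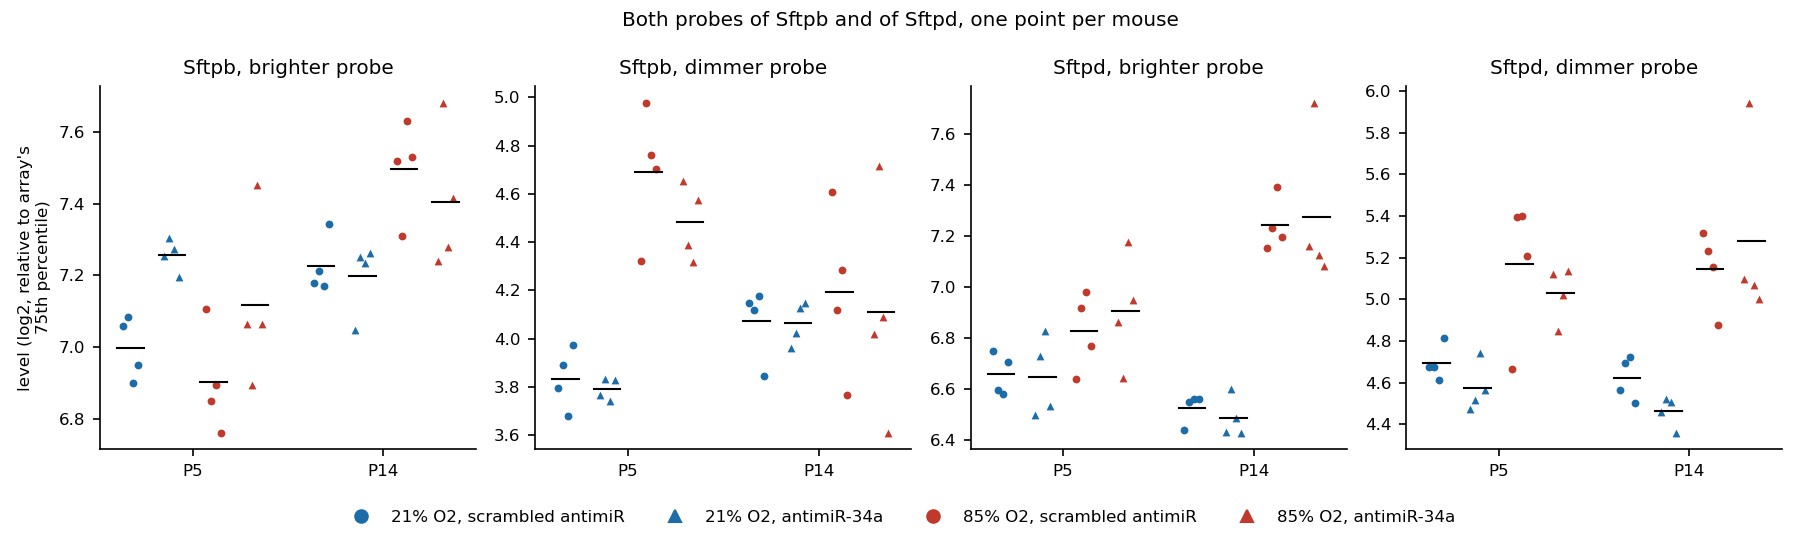
Levels of both probes of Sftpb and of Sftpd (y axis, log2 units above the array's 75th percentile) in every mouse at P5 and P14; colours and symbols as in the key, bars are means of 4 mice. At P5 the dimmer Sftpb probe is higher in 85% O2 by 0.86 on the log2 scale while the brighter differs by -0.10.

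Between P5 and P14 in 21% O2, with scrambled antimiR, Sftpc and Sftpa1 rose, 2 of the 10 genes against 51.4% of 39163 probes. Sftpc was 1.72 times as high at P14 (log2 0.78 ± 0.13, adjusted p = 1.33e-05 by limma), with every P14 level above every P5 level. Sftpa1 was 1.37 times as high (log2 0.46 ± 0.12, adjusted p = 0.00212 by limma), also without overlap. In all, 5 of the 10 genes did not overlap between the ages, against 49.1% of all probes. Differences for the 8 uncalled genes lay between -0.13 (Sftpd) and 0.24 (Slc34a2). Under quantile normalization and with the deposited values Sftpc was at 0 (adjusted p = 1), so that its call was lost, and Sftpd was called lower, by -0.26 with both (adjusted p = 0.0469 and 0.0476 by limma).

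The effect of oxygen itself differed between the ages for 8 of the 10 genes, against 40.8% of probes. The change at P14 minus that at P5 was more negative for 6 genes (18% of probes) and more positive for 2 (22.8%). These comparisons share their mice with the ones above. Slc34a2 showed the largest difference among the 10, since it was higher in 85% O2 at P5 and lower at P14 (difference of log2 fold changes -1.13 ± 0.16, adjusted p = 6.17e-06 by limma). Lamp3, with 0.09 at P5 and -0.43 at P14, differed by -0.52 ± 0.13 (adjusted p = 0.00196 by limma). Napsa differed by -0.70 (adjusted p = 0.00959), Etv5 by -0.39 (0.00705), Abca3 by -0.29 (0.0207) and Sftpa1 by -0.45 (0.0308, all by limma). Sftpd, by 0.55 (adjusted p = 0.00939 by limma), and Sftpb, by 0.37 (0.0429), differed upwards on their brighter probes. Both upward calls were lost under quantile normalization (Sftpd 0.28, adjusted p = 0.144; Sftpb 0.15, 0.186 by limma) and with the deposited values, which left 6 genes called, all downwards. The dimmer Sftpb probe differed by -0.73 (adjusted p = 0.0165 by limma) and the dimmer Sftpd probe by 0.05. With the mean of both its probes, Sftpd differed by 0.30 and was not called (adjusted p = 0.183 by limma). The Sftpb call was lost in 11 of the 16 fits without 1 mouse, that of Sftpa1 in 6 and that of Abca3 in 2. Without P14 hyperoxia scrambled replicate 4, 5 genes were called (Sftpd, Lamp3, Slc34a2, Napsa and Etv5), and those 5 were called in each of the 16 fits that left out 1 mouse.

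**Figure D4:**
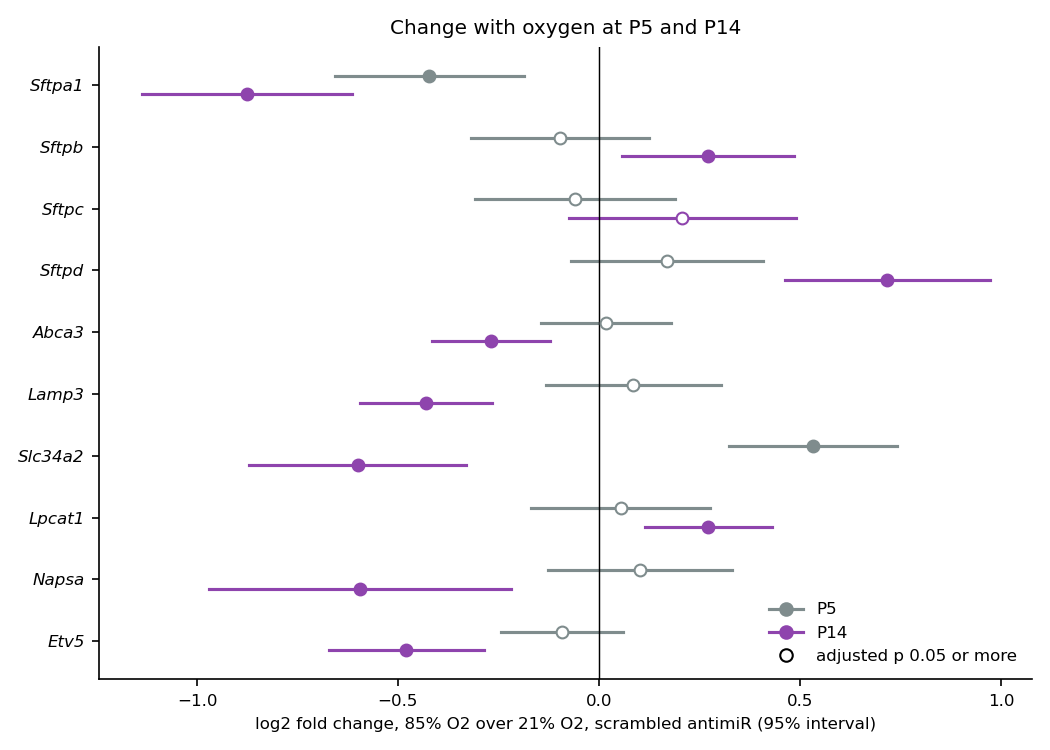
Log2 fold change between 85% O2 and 21% O2 under scrambled antimiR (x axis) for each gene (y axis) at P5 in grey and P14 in purple, with 95% intervals from limma; filled circles have an adjusted p below 0.05. Slc34a2 lies at 0.53 at P5 and at -0.60 at P14, and the intervals of the uncalled genes cross 0.

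The response to hyperoxia was also measured in mice given antimiR-34a, which share no animal with the scrambled antimiR mice. At P5 the genes called were Sftpa1, lower by 0.57, and Slc34a2, higher by 0.35 (log2), 2 of 10 against 46.6% of probes. Sftpd, at 0.26 (adjusted p = 0.0696 by limma), was called higher under quantile normalization (0.28, adjusted p = 0.0398), with the deposited values (0.31, 0.0363), and without P5 normoxia antimiR-34a replicate 3 (0.32, 0.0417) or P5 hyperoxia antimiR-34a replicate 2 (0.35, 0.0190, all by limma). Sftpb, at -0.14 on its brighter probe, was called lower with array weights (-0.20) and without P5 hyperoxia antimiR-34a replicate 3 (-0.25), the dimmest array. The dimmer probes of Sftpb (0.69, adjusted p = 0.000308) and Sftpd (0.46, 0.0128 by limma) were higher. At P14 there were 8 of 10 called against 65.5% of probes: 6 lower (37.9% of probes) and 2 higher (27.6%). Sftpa1 had levels of 6.32, 6.29, 6.30 and 6.21 in 21% O2 and 5.62, 6.13, 5.72 and 5.38 in 85% O2, a log2 fold change of -0.57 ± 0.12 (adjusted p = 0.00105 by limma). Slc34a2 had levels of 2.22, 2.32, 2.18 and 2.16 against 1.37, 1.89, 1.497 and 1.97 (log2 -0.54 ± 0.13, adjusted p = 0.00184 by limma). Neither gene overlapped between oxygen levels, and 7 of the 10 did not, against 58.9% of all probes. Sftpd was higher by 0.79 ± 0.12 and Lpcat1 by 0.20 ± 0.07, while Napsa (-0.53), Etv5 (-0.39), Lamp3 (-0.36) and Abca3 (-0.29) were lower. The Lpcat1 call was lost in 4 of the 8 fits without 1 mouse, under quantile normalization (0.14) and with the deposited values (0.14). The methods' t-test called 4 genes, Sftpd, Abca3, Lamp3 and Etv5, and lost Sftpa1, Slc34a2, Lpcat1 and Napsa. Sftpb, at 0.21 (adjusted p = 0.0847), and Sftpc, at -0.16 (0.292 by limma), were not called. Sftpb was called under quantile normalization (0.19, adjusted p = 0.0454 by limma) and without P14 hyperoxia antimiR-34a replicate 1 (0.26, 0.0444 by limma), a fit in which Napsa was lost (-0.44, 0.0536 by limma). In exposed antimiR-34a mice of this age, replicate 2 had a summed signal of 208.2 times the 75th percentile over 10 pan-epithelial genes, against 101.3 to 106.9 in the others, and of 241 over 15 surfactant lipid genes, against 163 to 186. Replicate 4 had a sum of 251 over 10 type I pneumocyte genes, against 363 to 448, and of 1234 over 8 club cell genes, against 908 to 967. Without replicate 2 the same 8 genes were called, and without replicate 4 the same except Lpcat1.

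None of the 10 genes was called for antimiR-34a by the limma test, in comparisons where few of all probes were called. In 85% O2 at P14, 0 of 10 were called against 2.67% of probes, and 1 gene, Lpcat1 (log2 -0.18), had an unadjusted p below 0.05, as did 16.5% of all probes. In 85% O2 at P5, 0 of 10 were called against 0.0639% of probes. There 1 gene was at an unadjusted p below 0.05 (Etv5, log2 0.18), as were 13.1% of all probes. In 21% O2 the count at P5 was 0 of 10 against 0.136%, with Sftpb and Sftpc at an unadjusted p below 0.05, as were 17.6% of all probes. The count at P14 was 0 of 10 against 0%, with no gene under that limit, against 10.5% of all probes. In 21% O2 at P14 all antimiR-34a mice lay below all scrambled antimiR mice for Lamp3 (log2 -0.11, adjusted p = 0.618 by limma) and Etv5 (-0.17, 0.4995 by limma), 2 of 10 genes without overlap against 5.12% of all probes. The methods' t-test with Benjamini-Hochberg adjustment called 0 of the 10 in each of these 4 comparisons. Its share over all probes was not computed, so that these counts say nothing particular to the 10 genes. Nor did the effect of antimiR-34a differ between the oxygen levels for any of the 10 (0.0556% of probes at P5 and 0.0884% at P14).

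The intervals bound the size of these differences. In 85% O2 at P14 they lay between -0.18 and 0.20 on the log2 scale, and the widest 95% interval was 0.38 to either side. Sftpc had levels of 9.30, 9.35, 9.66 and 9.57 with scrambled antimiR and 9.37, 9.26, 9.32 and 9.31 with antimiR-34a, overlapping, with an interval from -0.43 to 0.13. Etv5, at 4.63, 4.32, 4.28 and 4.35 against 4.30, 4.25, 4.21 and 4.50, had an interval from -0.27 to 0.11. In 21% O2 at P5 all 4 antimiR-34a mice lay above all 4 scrambled antimiR mice for Sftpc, at 8.78, 8.75, 8.74 and 8.66 against 8.59, 8.53, 8.43 and 8.37 (log2 0.25, adjusted p = 0.284 by limma). The same held for Sftpb (log2 0.26, adjusted p = 0.234 by limma), in a comparison where the mice did not overlap for 15.4% of all probes. All 4 antimiR-34a arrays of this comparison were dimmer, with 75th percentiles of 9.60 to 9.72 against 9.90 to 10.1 (log2). Before scaling, the geometric mean signal of the antimiR-34a mice was no higher for Sftpc (349900 against 362700) or for the brighter Sftpb probe (126000 against 129800). With array weights Sftpc was called in 21% O2 at P14 and in the difference between oxygen levels at P14.

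Other genes of the same cells were read beside the 10, from lists drawn up with earlier results of these data known. Of 12 other type II pneumocyte genes, 4 were higher and 4 lower in 85% O2 at P14 under scrambled antimiR, with a median of -0.10, where 28.2% of all probes were called higher and 32.7% lower, shares that apply to every P14 list count that follows. The lower ones were Lyz2 (log2 -1.19) and Lyz1 (-0.99), lysozymes that macrophages also make, Egfl6 (-0.74) and Cxcl15 (-0.37), a lung chemokine. The higher ones were Chil1 (1.47), Ctsh (1.02), a protease that processes SP-B, Rbpjl (0.51) and Hc (0.44), complement C5. At P5, where 17.4% of all probes were called higher and 26.5% lower, 5 were higher and 1 lower, with Ctsh again higher (0.78).

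Genes of surfactant lipid synthesis and turnover were mixed. At P14, 6 of 15 were higher (28.2% of all probes) and 3 lower (32.7%), with a median of 0.07. Chka, choline kinase (0.74), Srebf1 (0.60), Insig1 (0.59), Chpt1 (0.42) and Acaca (0.28) were among the higher ones, and Adgrf5, a receptor that limits the surfactant pool (-0.73), Lpin1 (-0.46) and Acly (-0.28) were lower. Prdx6, a surfactant phospholipase and one of the brightest of the list, was higher at P5 (0.86) and at 0.17 at P14, and Fabp5 was at -0.02. Of 12 regulators, 5 were higher and 3 lower at P14, against the same 28.2% and 32.7%. Stat3 (1.44), Cebpd (1.11), Erbb3 (0.57), Foxa2 (0.32) and Klf5 (0.29) were higher and Nr3c1, the glucocorticoid receptor (-0.57), Thrb (-0.48) and Foxa1 (-0.42) lower, while Nkx2-1 was at 0.03. At P5, 5 regulators were higher (17.4% of all probes) and 0 lower (26.5%), and 11 of the 12 had a positive fold change, with a median of 0.26.

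The relatives of Etv5 and the feedback genes of FGF-ERK signalling did not move as one. Etv4 was higher at P14 by 2.06 on the log2 scale where Etv5 was lower by 0.48. Etv1 (-1.16), Spry1 (-0.88) and Spry4 (-1.57) were lower, 3 of 8 against 1 higher, and Dusp6 was at 0.14. At P5 Spry4 was lower (-1.84) and Spry2 (0.504), Spry1 (0.36) and Spred1 (0.31) higher.

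Pan-epithelial genes were mostly higher in 85% O2 at both ages. At P14, 8 of 10 were higher in 85% O2 and none lower, with a median of 0.86, and at P5 there were 9 of 10 higher, with a median of 0.59. Krt18 (0.99 at P14), Krt8 (0.72) and Cldn7 (1.16), among the brightest, as well as Epcam (0.95), Elf3 (1.00), Esrp1 (0.91), Esrp2 (0.81) and Cdh1 (0.40) were higher, and Krt19 was at 0.49. Their summed signal was 66.4 to 69.9 times the 75th percentile of the array in 21% O2 and 115 to 130 times in 85% O2 at P14. Scaling on the mean of these 10 genes in place of the 75th percentile, a setting chosen after seeing the data, moved the log2 fold change of every probe down by nearly the same amount, by -0.77 to -0.72 at P14 and -0.69 to -0.55 at P5. Of all probes 74.3% at P14 and 80.8% at P5 were then called lower, and of the surfactant genes 9 of 10 at each age, counts that the shift sets and that say nothing particular to the 10 genes. Genes with a rise smaller than the shift turned in sign by the same step, Sftpb, Sftpc, Sftpd and Lpcat1 at P14 and Sftpd, Abca3, Lamp3, Slc34a2, Lpcat1 and Napsa at P5.

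Markers of other lung cells moved too. Type I pneumocyte genes were higher in 5 of 10 and lower in 2 at P14, with Gprc5a (1.14), Aqp5 (0.81), Hopx (0.59), Rtkn2 (0.57) and Pdpn (0.35) higher, Emp2 lower (-0.74) and Akap5 at 0.25. At P5, 8 of the 10 were higher and 1 lower, with a median of 0.43, where 17.4% of all probes were called higher and 26.5% lower. Club cells make SP-A, SP-B and SP-D as well. The summed signal of 8 club cell genes was 843 to 873 times the 75th percentile in 21% O2 and 960 to 1221 times in 85% O2 at P14, whereas their mean log2 level was lower, at 4.37 to 4.58 in 21% O2 and 3.595 to 4.21 in 85% O2. There were 3 higher and 3 lower. Of them, Scgb1a1 (0.43), Cbr2 (0.45) and Gsta3 (1.26) were higher, and Scgb3a1 (-5.24) and Scgb3a2 (-0.79) were among the lower ones, while Cyp2f2 was at 0.01 and Aldh1a1 at 0.24. Of 8 ciliated cell genes 1 was higher and 1 lower, Tekt1 (0.74) and Tppp3 (-0.53), with Dynlrb2 at 0.42 and Cfap126 at 0.32. Of 10 alveolar macrophage genes, 6 were lower, among them Ear2 (-2.32) and Chil3 (-2.42), and 3 higher, Marco (2.40), Mrc1 (0.92) and Car4 (0.44). The part of these cells in the surfactant gene values was not tested. AntimiR-34a in 85% O2 had 0 genes of these lists called by limma at either age, against 0.0639% of probes at P5 and 2.67% at P14. In 21% O2 it raised 1 list gene at P5, Spry1, a feedback inhibitor of FGF-ERK signalling (log2 0.50 ± 0.08, adjusted p = 0.0310 by limma), against 0.136% of probes called in either direction, and its effect on Spry1 at P5 was lower in 85% O2 than in 21% O2 by -0.78 (adjusted p = 0.0173 by limma).

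**Figure D5:**
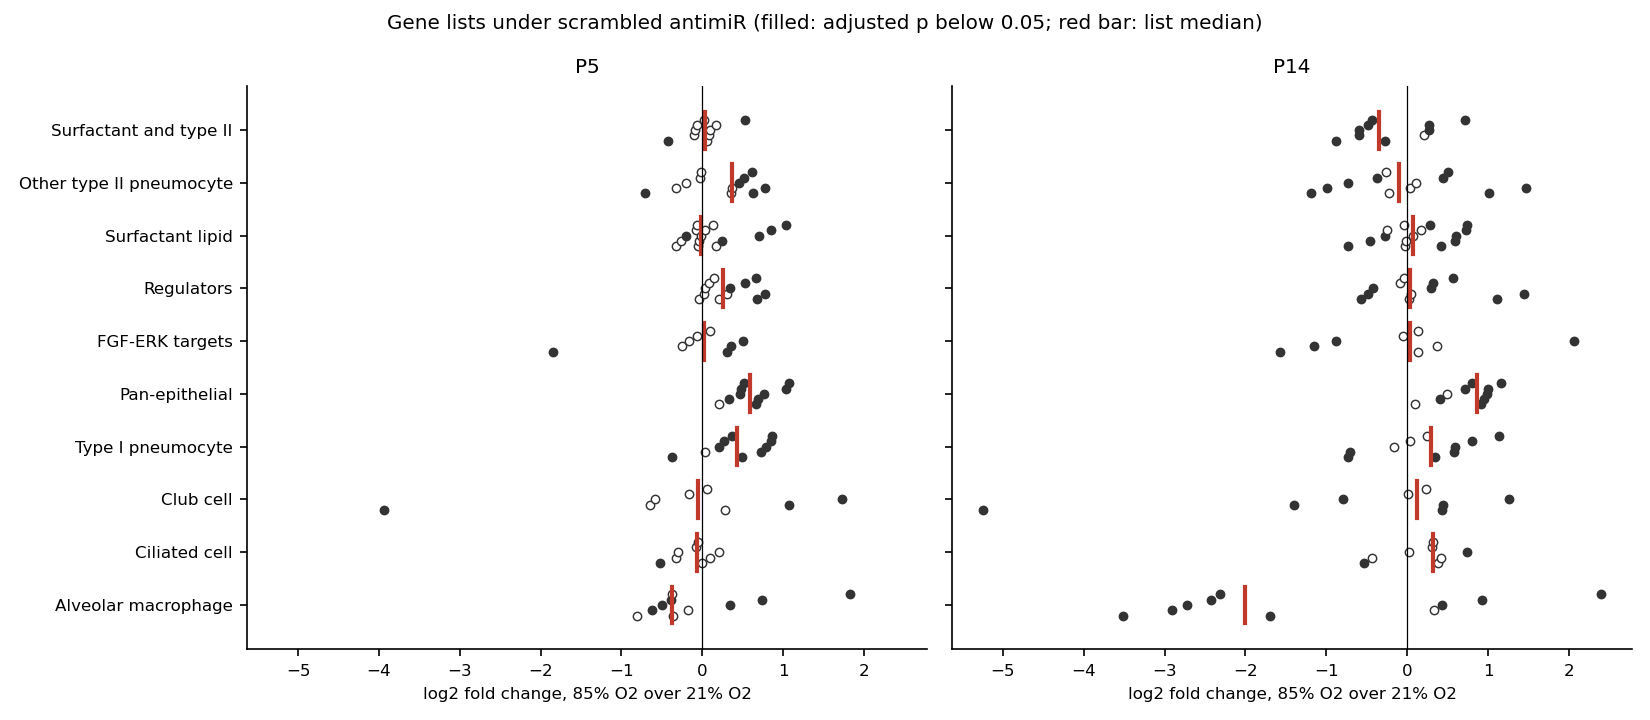
Log2 fold change between 85% O2 and 21% O2 under scrambled antimiR (x axis) for every gene of each list (y axis) at P5 and P14; filled points have an adjusted p below 0.05 by limma and red bars are list medians. The pan-epithelial median is 0.59 at P5 and 0.86 at P14, and that of the 10 surfactant and type II pneumocyte genes is 0.04 and -0.35.

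Among themselves the 10 genes did not share one pattern over the 8 groups. Pearson's r between the group means of 2 genes, 8 points that share slides, ran from -0.92 for Sftpd with Abca3 to 0.97 for Lamp3 with Napsa. Sftpa1 was highest in P14 normoxia scrambled mice, at 6.38 ± 0.11 (SD, n = 4), and lowest in P5 hyperoxia antimiR-34a mice, at 5.38 ± 0.09. The 2 groups of P14 mice in 21% O2 overlapped with each other and lay above the next group, P5 normoxia antimiR-34a. For Sftpc, the lowest P14 group, at 9.26 ± 0.25, lay above the highest P5 group, at 8.73 ± 0.05, with no overlap, while neighbours within an age overlapped. For Slc34a2 the highest group was P5 hyperoxia scrambled, at 2.61 ± 0.20, and the only gap between neighbours lay above the 2 groups of P14 mice in 85% O2, at 1.72 ± 0.18 and 1.68 ± 0.29.

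Genes with the most similar pattern over the 8 group means were sought by Pearson's r, as a description, among named genes above background that varied at least 0.5 times as much between groups as the pattern itself. The mean of the 10 genes was most like Dach1 (r = 0.98), Gpr143 (0.98), Gm13298 (0.96), Cracr2b (0.96) and Cntn4 (0.96), of 18942 genes compared. Of 12762 genes compared, Elk1, Exosc2 and Med16 were most like Sftpc (r between 0.99 and 1.00). Of 18053, Clec14a (0.97), Galnt14 (0.96) and Gm10544 (0.96) were most like Etv5. With 8 points and many genes, values this high are a description of these groups alone.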

How the data were processed

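Whole-lung RNA of 32 mice was labelled with Cy3 and hybridised to 1-colour Agilent arrays. Per the file headers, each deposited array file holds spot intensity from Feature Extraction 10.7.3.1, with a background-subtracted processed intensity and flags for background and saturation. The authors also deposited a series table of log2 values whose columns share a single distribution (quantile normalization), used here as an alternative. Here the log2 processed signal was centred on the 75th percentile of each array, without outlier spots (0.211%), and repeated spots were averaged. A probe entered a test when some compared group had it well above background on each of its arrays. limma 3.58.1 (R 4.3.3) was fitted to group means, separately for P5 and P14 and jointly for comparisons of age, and p-values were adjusted across the tested probes by Benjamini-Hochberg, with 0.05 as the threshold. The methods' t-test was an alternative. Each gene is represented by its brightest probe. From each list, the rule names the 4 brightest genes and genes called against the direction of most of the 10 at P14. Other list genes were named after their values were seen. The 10 genes and the lists were chosen with earlier results of these data known. The limma script was tested on simulated data. Figures were drawn with matplotlib 3.10.9. Arrays have no sequencing depth, and 4 mice per group limit the precision. Values of some list genes are not reported here.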

Additional observations from a re-analysis of the deposited data

Results flagged for a closer look

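In 5 of 80 combinations of gene and group, 1 mouse lay far from the other 3 by Dixon's test, where chance gives about 1 in 20. In P14 normoxia antimiR-34a mice, replicate 1, the brightest array, had levels of 7.05 for Sftpb (others 7.23 to 7.26) and 9.16 for Sftpc (others 9.57 to 9.61). In the same group Etv5 was 4.58 in replicate 4 (others 4.73 to 4.76). Sftpd was 7.72 in P14 hyperoxia antimiR-34a replicate 2 (others 7.08 to 7.16), a mouse whose summed signal over 10 pan-epithelial genes was 208.2 times the 75th percentile against 101.3 to 106.9 in the others. It was 6.44 in P14 normoxia scrambled replicate 1 (others 6.55 to 6.56).

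The difference between oxygen levels was not the same at P14 and P5 for 8 of the 10 genes by the interaction term of limma, against 40.8% of probes. Each age and oxygen level had a slide of its own, so that an effect of the slide cannot be told apart from this. The differences of log2 fold changes were -1.13 for Slc34a2, -0.70 for Napsa, -0.52 for Lamp3, -0.45 for Sftpa1, -0.39 for Etv5 and -0.29 for Abca3, and 0.55 for Sftpd and 0.37 for Sftpb. The calls of Sftpd and Sftpb were lost under quantile normalization and with the deposited values. Of 16 fits without 1 mouse, the Sftpb call was lost in 11, that of Sftpa1 in 6 and that of Abca3 in 2. The dimmer Sftpb probe differed the other way (-0.73, adjusted p = 0.0165 by limma).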

How the results depend on the processing

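With the replicate number as a block (replicate block), 2 genes were called for oxygen at P5 and 9 at P14 under scrambled antimiR, 2 and 8 under antimiR-34a, 2 for age, 0 in each antimiR-34a comparison and 7 for oxygen by age, where Sftpb was lost. Mice of the same number correlated between -0.35 and 0.50, so the numbers were not taken as pairs. Leaving out 1 array gave 2 to 2 and 8 to 10 genes for oxygen at P5 and P14 under scrambled antimiR, 2 to 3 and 7 to 8 under antimiR-34a, 2 to 3 for age, 5 to 8 for oxygen by age and 0 to 0 for antimiR-34a. The methods' t-test called 1 (Slc34a2) for oxygen at P5 under scrambled antimiR, 4 at P14 under antimiR-34a and 4 for age. For age, array weights gave 5, fitting only the compared groups 4 and scaling on pan-epithelial genes 4. Array weights called 1 (Sftpc) for antimiR-34a in 21% O2 at P14 and 1 for antimiR by oxygen at P14. Under scrambled antimiR they also called Sftpc for oxygen at P14 (0.27, adjusted p = 0.0247) and for oxygen by age (0.39, 0.014). Sftpd was called higher with them for oxygen at P5 under scrambled antimiR (0.25, 0.0408, all by limma). The mean of a gene's probes gave 4 for oxygen at P5 with either oligonucleotide, with Sftpb at 0.38 and 0.28 (log2), and Sftpb at -0.18 for oxygen by age.

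Scaling on pan-epithelial genes lowers all probes nearly alike in the oxygen comparisons. It called 9 genes for oxygen at P5 under scrambled antimiR and 10 under antimiR-34a, all lower, as were 80.8% and 86.2% of all probes, so that these counts are no result about the 10 genes. It turned, at P5 under scrambled antimiR, Sftpd to -0.45, Abca3 to -0.61, Lamp3 to -0.54, Slc34a2 to -0.0908, Lpcat1 to -0.57 and Napsa to -0.52, and under antimiR-34a Sftpd to -0.46, Slc34a2 to -0.37, Lpcat1 to -0.61 and Napsa to -0.72. At P14 it turned Sftpb to -0.48, Sftpc to -0.55, Sftpd to -0.0356 and Lpcat1 to -0.48 under scrambled antimiR, and Sftpb to -0.64, Sftpd to -0.0628 and Lpcat1 to -0.65 under antimiR-34a. For age it raised all probes, by 0.0494 to 0.15, and turned Lpcat1 to 0.00679 and Napsa to 0.0516. For oxygen by age the calls of Sftpb (0.24, adjusted p = 0.348) and Abca3 (-0.42, 0.0744, both by limma) were lost.

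Values near 0 turned sign under quantile normalization, with the authors' values in brackets: at P5 Sftpc to 0.0275 (0.0271) and Abca3 to -0.0193 (-0.0187) under scrambled antimiR, Sftpc to 0.0662 (0.0628) and Napsa to -0.0342 (-0.0344) under antimiR-34a, and at P14 Sftpc under antimiR-34a to 0.0327 (0.0357). Without 1 array, Sftpc at P5 ran from -0.15 to 0.00475 (scrambled antimiR) and from -0.19 to 0.00131 (antimiR-34a), Abca3 from -0.0265 to 0.0608, and Napsa under antimiR-34a from -0.0576 to 0.0563, while for age Lamp3 ran from -0.00392 to 0.14 and Napsa from -0.13 to 0.0127.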
